A study of Mus musculus with 12 samples.

Results

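Acetylation of lysine 36 on histone H3 (H3K36ac) was mapped by chromatin immunoprecipitation and sequencing in mouse liver tumours, and the summits of its peaks that fell at the ends of genes are described here. A summit is the position of highest pileup in a peak. Of 108914 summits on chromosomes 1 to 19 in 6 peak lists, 1144 (1.05%) lay within 250 bp of either annotated end of a protein-coding gene, and they marked 1105 of 20665 genes (5.35%) in at least 1 library. The groups were LysM-Cre mice (3 libraries) and Trem2-MKO mice (3 libraries), both with a liver tumour and both given anti-PD-1, an antibody against an inhibitory receptor of T cells. LysM-Cre places Cre recombinase under the lysozyme M gene of myeloid cells, and Trem2-MKO mice lack Trem2, a lipid-sensing receptor of macrophages, in the myeloid lineage only. Whole tumour was used, so the chromatin of tumour cells, stroma and immune cells was mixed and no cell type can be assigned to a summit. Strain, age and the origin of the tumours are not given in the sources used here, and the labels number the libraries but do not tie each of them to a mouse, so p-values measure the spread between libraries, which may be technical. The 6 input samples were not analysed here as libraries.

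Histone acetylation loosens the contact of DNA with the nucleosome and is read by proteins that assist transcription. H3K36ac is deposited by acetyltransferases such as GCN5 and is known mainly from the promoters of active genes, whereas methylation of the same lysine marks the bodies of transcribed genes. Many mammalian promoters lie in CpG islands, stretches rich in the CpG dinucleotide that stay unmethylated and accessible in most cell types. Housekeeping genes usually have such promoters, and many tissue-restricted genes do not.

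The sequences below are the 250 bases upstream of the transcription start of 5 genes that carried a summit at that start in 2 or 3 libraries, from RefSeq with build GRCm38.p6, 5′ to 3′ on the strand of the gene. They are shown because the marked starts differed from all starts in base composition. CpG dinucleotides are in capitals.
Arpc2, chr1:74236267-74236516, + strand: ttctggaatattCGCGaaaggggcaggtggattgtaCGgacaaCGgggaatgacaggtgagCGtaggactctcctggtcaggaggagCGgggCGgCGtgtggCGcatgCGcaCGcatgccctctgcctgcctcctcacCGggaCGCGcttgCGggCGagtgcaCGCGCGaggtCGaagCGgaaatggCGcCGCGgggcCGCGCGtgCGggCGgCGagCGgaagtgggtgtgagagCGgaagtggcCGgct
Mrpl39, chr16:84735245-84735494, - strand: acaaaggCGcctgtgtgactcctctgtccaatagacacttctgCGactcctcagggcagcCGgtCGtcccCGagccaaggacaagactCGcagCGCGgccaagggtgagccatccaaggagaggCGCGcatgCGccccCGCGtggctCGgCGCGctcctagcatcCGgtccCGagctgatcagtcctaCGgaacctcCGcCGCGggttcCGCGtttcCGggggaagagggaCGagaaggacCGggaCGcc
Dguok, chr6:83506970-83507219, - strand: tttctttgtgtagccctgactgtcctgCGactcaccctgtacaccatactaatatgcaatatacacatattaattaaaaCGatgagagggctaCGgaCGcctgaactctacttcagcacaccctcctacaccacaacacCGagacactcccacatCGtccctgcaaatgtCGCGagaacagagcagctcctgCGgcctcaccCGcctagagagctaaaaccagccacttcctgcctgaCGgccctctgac
Slc50a1, chr3:89270571-89270820, - strand: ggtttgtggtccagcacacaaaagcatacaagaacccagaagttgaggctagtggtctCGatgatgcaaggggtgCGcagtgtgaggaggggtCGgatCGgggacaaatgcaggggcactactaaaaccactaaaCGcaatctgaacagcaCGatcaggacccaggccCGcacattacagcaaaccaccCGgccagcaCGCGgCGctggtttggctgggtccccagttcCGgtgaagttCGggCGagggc
Krtap28-13, chr1:83060680-83060929, + strand: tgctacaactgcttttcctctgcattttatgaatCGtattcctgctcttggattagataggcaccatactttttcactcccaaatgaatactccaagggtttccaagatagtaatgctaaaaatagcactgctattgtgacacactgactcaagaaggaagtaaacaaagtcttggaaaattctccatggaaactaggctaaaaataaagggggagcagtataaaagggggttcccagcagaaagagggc
The Arpc2 and Mrpl39 stretches held 33 and 28 CpG dinucleotides, the Slc50a1 stretch 14 and the Dguok stretch 11. Krtap28-13, a keratin-associated protein gene, stood at the other extreme with 1 CpG and a GC content of 40.4%, against 68.4% for Arpc2. In Arpc2 and Slc50a1 the start used for the sequence lies 27 and 21 bp inside the outermost annotated end from which distances are counted below.

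Over the full lists, the share of summits that lay at gene ends was much the same in both genotypes. It was 0.996%, 1.02% and 1.36% in LysM-Cre replicates 1 to 3 (181, 304 and 269 summits) and 0.783%, 1.63% and 0.994% in Trem2-MKO replicates 1 to 3 (233, 111 and 46 summits). The Trem2-MKO values enclosed those of LysM-Cre, and the means of 1.13% ± 0.202 and 1.13% ± 0.439 (SD, n = 3 each) differed by -0.00902 percentage points (LysM-Cre minus Trem2-MKO, exact two-sided permutation p = 1, where 3 against 3 cannot go below 0.1). In the same order the summits marked 189, 321, 281, 247, 115 and 46 genes, which is 0.915%, 1.55%, 1.36%, 1.2%, 0.556% and 0.223% of all genes. The lists held 18262, 29970 and 19981 peaks in LysM-Cre and 29906, 6840 and 4638 in Trem2-MKO. Trem2-MKO replicates 2 and 3 thus had the fewest peaks, and their peaks rested on the most fragments, with medians of 20 and 23 at summits away from gene ends against 11 in the other 4 libraries. Across LysM-Cre libraries 742 genes (3.59%) were marked and across Trem2-MKO libraries 392 (1.9%). The part of list length and depth in this difference was not tested.

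The targeted gene was marked in no library. Trem2 (chromosome 17, 48346401 to 48352276) had its nearest summit 1.49, 1.79 and 8.01 kb from an end in the LysM-Cre libraries and 51.5, 56.8 and 146 kb away in the Trem2-MKO libraries. Lyz2, which encodes lysozyme M, and Pdcd1, which encodes PD-1, also had a summit at an end in 0 of 6 libraries. Peaks of whole tumour do not check the deletion, which affects only myeloid cells.

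Summits lay more often at transcription starts than at the opposite ends of genes. Strand was known for 16457 of the 20665 genes (79.6%; none on chromosome 18), and 616 summits lay near starts and 263 near opposite ends of these genes, while 6 lay near both and 259 near ends of genes whose strand was not known or near ends of mixed kind. Summits at starts numbered 95, 159 and 156 in LysM-Cre and 115, 67 and 24 in Trem2-MKO, and summits at opposite ends 49, 79 and 40 in LysM-Cre and 68, 20 and 7 in Trem2-MKO. Starts therefore took 66.0%, 66.8% and 79.6% of the LysM-Cre summits of known kind and 62.8%, 77.0% and 77.4% of those in Trem2-MKO. The share at starts exceeded the share at opposite ends in 6 of 6 libraries, by 43.2 percentage points on average (SD 14.4, n = 6; exact two-sided sign-flip permutation p = 0.0312, the smallest that 6 libraries can give, and 0.109 after Benjamini-Hochberg adjustment over 7 tests, which does not pass 0.05). The excess averaged 41.6 ± 15.3 percentage points in LysM-Cre and 44.8 ± 16.6 in Trem2-MKO (SD, n = 3 each), and the genotypes did not differ beyond that spread (difference -3.27, exact two-sided permutation p = 1).

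Summits were dense around starts and not around opposite ends. Within 250 bp of starts it was 2.12, 2.49 and 3.09 times the density at 2 to 5 kb in LysM-Cre and 1.54, 4.02 and 2.61 times in Trem2-MKO. At opposite ends the same ratio was 0.997, 0.893 and 0.642 in LysM-Cre and 0.748, 0.962 and 0.733 in Trem2-MKO, so that no library had more summits there than in the surrounding sequence. Trem2-MKO replicate 1 had the lowest ratio at starts and Trem2-MKO replicate 2 the highest. The summits at starts lay mostly inside the gene: 68, 118 and 117 at or downstream of the start against 27, 41 and 39 upstream in LysM-Cre, and 74, 47 and 18 against 41, 20 and 6 in Trem2-MKO. Their median position was 79, 78 and 98 bp downstream in LysM-Cre and 65, 98 and 116 bp downstream in Trem2-MKO. The outermost annotated start was used, and a start in use further inside the gene would move these positions. Summits more than 250 bp from a start were left out, so the window also bounds these medians.

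**Figure D1:**
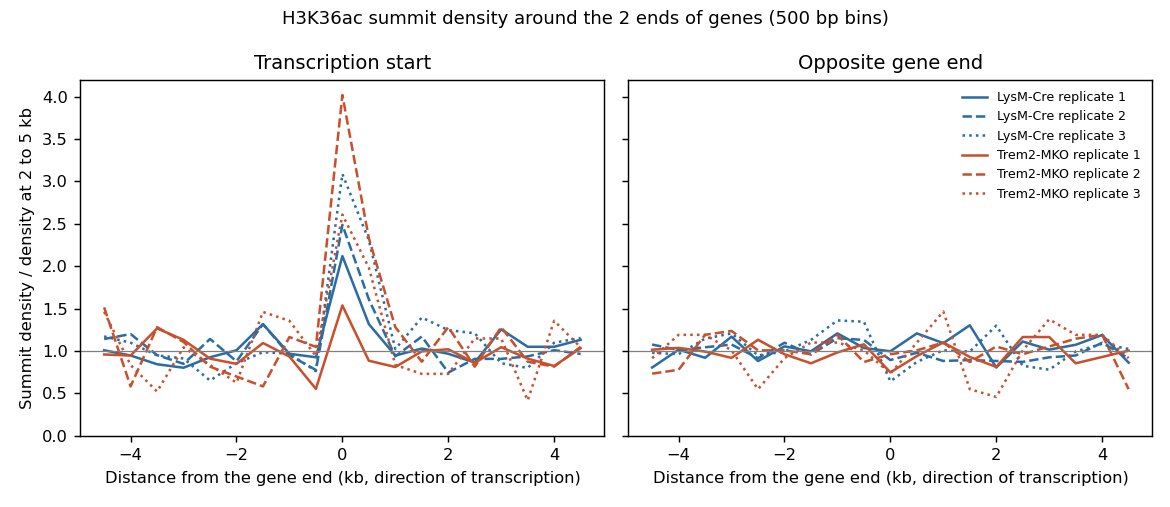
Density of H3K36ac summits in 500 bp bins against the distance from the transcription start (left) and from the opposite gene end (right), in kb in the direction of transcription, divided by the density at 2 to 5 kb of the same library; each line is a library. All 6 lines peak at the start, at 1.54 to 4.02, and none does at the opposite end, where the central bin lies between 0.642 and 0.997.

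Summits at starts also recurred more than others. A peak with its summit at a start overlapped a peak of another library by 1 bp or more in 25.3%, 20.1% and 22.4% of cases in LysM-Cre and 12.2%, 25.4% and 37.5% in Trem2-MKO. For peaks at opposite ends the shares were 8.16%, 3.80% and 7.5% in LysM-Cre and 5.88%, 0% and 14.3% in Trem2-MKO, the last 3 being 4, 0 and 1 peaks. Peaks away from gene ends overlapped in 9.45%, 7.68% and 9.35% in LysM-Cre and 6.73%, 13.5% and 15.6% in Trem2-MKO. Starts had the highest of the 3 shares in each of the 6 libraries and opposite ends the lowest. Counted over genes of known strand, 607 starts (3.69%) and 271 opposite ends (1.65%) were marked in at least 1 library, and 50 starts (0.304%) and 5 opposite ends (0.0304%) in 2 or more. These shares are given as a description, with no test.

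**Figure D2:**
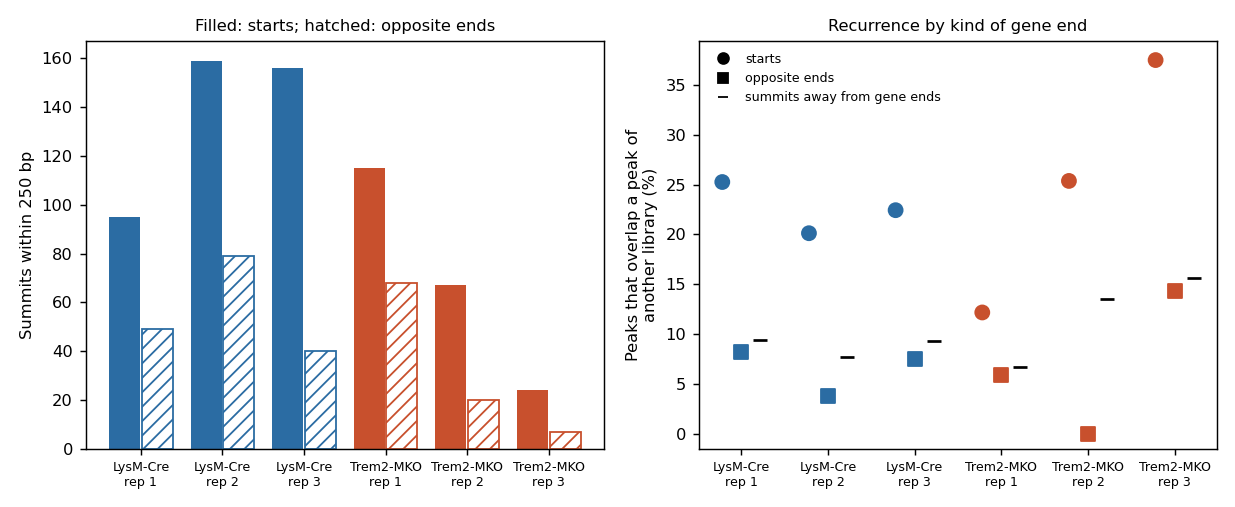
Left, number of summits within 250 bp of transcription starts (filled bars) and opposite gene ends (hatched bars) in each library. Right, percent of those peaks that overlap a peak of another library, with peaks away from gene ends as dashes; LysM-Cre is blue and Trem2-MKO orange. Starts lie above opposite ends in all 6 libraries in both plots.

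Starts that carried a summit were richer in G and C than starts in general. Over 13556 genes with a RefSeq sequence from 250 bases before to 50 after the start, the mean GC content was 55.6%. The starts marked in LysM-Cre replicates 1 to 3 had means of 58.3%, 57.9% and 57.9%, and those marked in Trem2-MKO replicates 1 to 3 had 56.1%, 58.5% and 63.2%, over 93, 161, 163, 115, 65 and 24 starts. All 6 means were above that of all starts, by 3.04 percentage points on average (SD 2.39, n = 6; exact two-sided sign-flip permutation p = 0.0312, the smallest possible, 0.109 after adjustment over 7 tests). The excess averaged 2.43 ± 0.260 percentage points in LysM-Cre and 3.65 ± 3.63 in Trem2-MKO (SD, n = 3 each; exact two-sided permutation p = 0.7). Trem2-MKO replicate 3, with 24 starts, gave the highest value and Trem2-MKO replicate 1 the lowest.

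Marked starts were also more often rich in CpG. A start was called CpG-rich when its GC content was at least 50% and its observed over expected CpG ratio at least 0.6, which held for 46.4% of the 13556 starts, for 61.8% of the 568 starts with sequence that were marked in any library and for 75.5% of the 49 marked in 2 or more. By library, CpG-rich starts made up 66.7%, 65.8% and 66.3% of the marked starts in LysM-Cre and 52.2%, 63.1% and 58.3% in Trem2-MKO. All 6 shares exceeded 46.4%, and the LysM-Cre shares did not overlap those of Trem2-MKO, a difference that was not tested. Read the other way, 351 of 6284 CpG-rich starts (5.59%) and 217 of 7272 other starts (2.98%) were marked in any library, and 0.589% and 0.165% in 2 or more. CpG-rich starts were marked more often than other starts in each library. The shares were 0.987% against 0.426%, 1.69% against 0.756% and 1.72% against 0.756% in LysM-Cre replicates 1 to 3. In Trem2-MKO replicates 1 to 3 they were 0.955% against 0.756%, 0.652% against 0.330% and 0.223% against 0.138%.

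**Figure D3:**
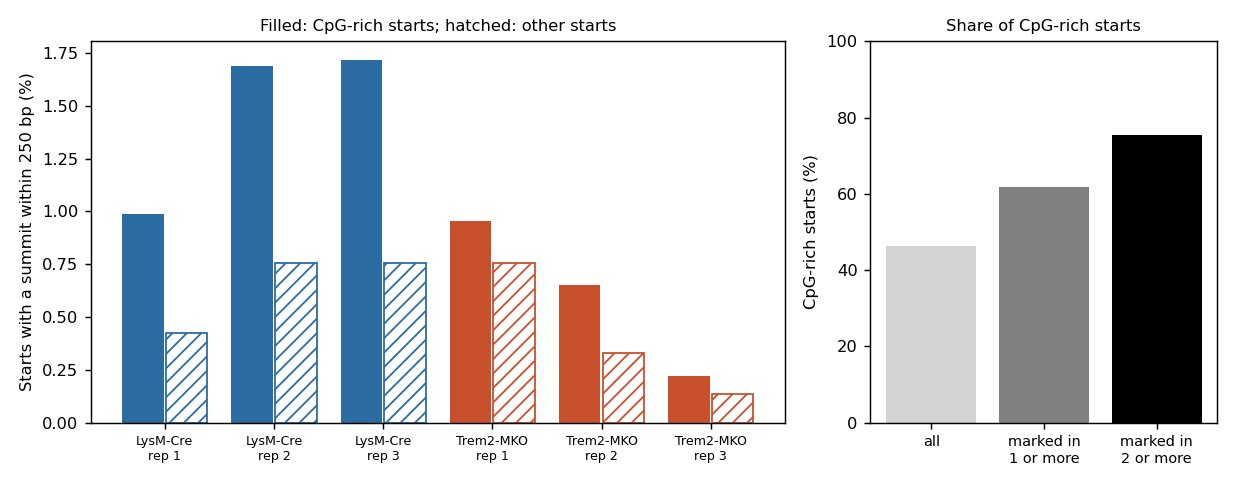
Left, percent of CpG-rich starts (filled) and of other starts (hatched) with a summit within 250 bp in each library, LysM-Cre in blue and Trem2-MKO in orange. Right, percent of CpG-rich starts among all 13556 starts, among starts marked in any library and among those marked in 2 or more, which is 46.4%, 61.8% and 75.5%.

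Short motifs were counted on both strands of the 300 bases. The GC box (GGGCGG, bound by SP factors) was present at 46.7% of all starts and 56.2% of the 568 marked ones, the ETS core (CCGGAAG) at 12.6% and 16.7%, and the E-box (CACGTG) at 8.14% and 10.9%. The core of NRF1, a regulator of mitochondrial genes (GCATGC with GC on either side), was present at 1.52% of all and 4.23% of marked starts, which is 24 starts. It stands in the Arpc2 and Mrpl39 sequences above. The TATA core (TATAAA) was less frequent at marked starts, at 12.3% against 14.5%, as was the CCAAT box (CCAAT), at 36.8% against 40.2%. The cyclic AMP response element (TGACGTCA) was at 2.54% of all and 2.64% of marked starts and the YY1 core (AAGATGGC) at 3.34% and 4.05%. Among the 49 starts marked in 2 or more libraries, the GC box was at 51.0%, the ETS core at 16.3% and the E-box at 10.2%. There the NRF1 core was at 4.08%, the TATA core at 10.2% and the CCAAT box at 28.6%. The cyclic AMP response element was at 4.08% of them and the YY1 core at 2.04%. A match of letters is no evidence of binding, and several of these motifs contain CpG. Another gene started on the opposite strand within 1 kb at 6.85% of all starts, 8.24% of the 607 marked starts and 12% of the 50 marked in 2 or more. Marked genes were of ordinary length, with a median of 18837 bp against 17491 bp for all genes.

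Summits at gene ends were no taller relative to their background than summits elsewhere, but they rested on more fragments. The median fold over local background was 3.13, 2.97 and 3.23 at gene ends in LysM-Cre and 3.09, 2.56 and 2.45 in Trem2-MKO, against 3.22, 3.01 and 3.25 and 3.05, 2.63 and 2.68 away from them. The difference of medians averaged -0.036 on the log2 scale (SD 0.050, n = 6; higher at gene ends in 1 of 6 libraries; exact two-sided sign-flip permutation p = 0.0938, 0.219 after adjustment) and did not differ between genotypes beyond their spread (LysM-Cre minus Trem2-MKO 0.027, exact two-sided permutation p = 0.8). The median number of fragments at the summit was 12, 12.5 and 14 in LysM-Cre and 12, 27 and 35 in Trem2-MKO, against 11, 11 and 11 and 11, 20 and 23 elsewhere. The local background, which comes from the control, was also higher at gene ends in 6 of 6 libraries, at medians of 2.73, 2.99 and 3.45 in LysM-Cre and 3.17, 8.61 and 8.50 in Trem2-MKO, against 2.42, 2.70 and 2.39 and 2.60, 5.92 and 5.92 elsewhere. The medians elsewhere recur as the background of several single summits in each list. They may be a floor of the calculation, which was not tested. Peaks with a q-value of 0.01 or less made up 23.2%, 30.6% and 36.4% of summits at gene ends in LysM-Cre and 26.2%, 35.1% and 34.8% in Trem2-MKO, against 14.5%, 17% and 15.8% and 17%, 12.9% and 9.19% of other summits. Fold is the authors' value and is compared here only within a list.

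No gene was marked in more than 3 of the 6 libraries. A summit lay at an end in 1 library for 1019 genes, in 2 for 78 and in 3 for 8, so that 86 genes (0.416%) were marked in 2 or more and 8 (0.0387%) in 3. Of the 78, 39 were marked in LysM-Cre libraries only, 13 in Trem2-MKO libraries only and 26 in 1 of each. Counted by end, 76 of 41330 gene ends (0.184%) were marked in 2 or more libraries. That number rests most on LysM-Cre replicates 2 and 3, since it was 40 without the first of them and 41 without the second. LysM-Cre replicates 2 and 3 shared 23 ends, which is 7.17% of the ends of the first and 8.13% of those of the second, and Trem2-MKO replicates 2 and 3 shared 8, or 6.96% and 17%. The remaining pairs of a genotype shared 13 ends (LysM-Cre replicates 1 and 2), 15 (LysM-Cre replicates 1 and 3), 3 (Trem2-MKO replicates 1 and 2) and 5 (Trem2-MKO replicates 1 and 3). The most that a pair of different genotypes shared was 7 ends, between LysM-Cre replicate 2 (2.18%) and Trem2-MKO replicate 1 (2.82%), and Trem2-MKO replicate 3 shared 0 with each LysM-Cre library. As a percent of the ends of both lists together, pairs of a genotype shared 2.93% on average (0.833% to 5.19%, 6 pairs) and pairs of different genotypes 0.566% (0% to 1.25%, 9 pairs), so the ranges overlapped. The same sharing over all peaks is not given here, and whether this difference is particular to gene ends was not tested. The authors' control was pooled per the file names, and which inputs entered the pool is not given in the sources used here.

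Arpc2, Nsmf, Crybb3 and Zfp354a, 4 genes in all (0.0194%), had a summit in every LysM-Cre library and in 0 of 3 libraries of the other genotype. Arpc2 (chromosome 1, 74236490 to 74268209, + strand) encodes a subunit of the ARP2/3 complex, which nucleates branched actin filaments. Its summits lay 6 bp upstream, 33 bp downstream and 41 bp upstream of the start in LysM-Cre replicates 1, 2 and 3, with folds of 4.19, 4.39 and 3.14 from 30, 29 and 22 fragments and -log10 p of 11.6, 11.9 and 6.60. The nearest Trem2-MKO summits were 97.4, 96.8 and 8.82 kb away in replicates 1, 2 and 3. With any single change of window, p limit, q limit or list length that was tried, Arpc2 kept this pattern, whereas Nsmf, Crybb3 and Zfp354a lost it with a window of 100 bp, at -log10 p of 5, at -log10 q of 2 and in lists of equal length. Nsmf (chromosome 2, 25054361 to 25062881, strand not known here), whose product links synapse and nucleus in neurons, had the strongest single summit of the 4 genes, with folds of 4.05, 6.96 and 3.00 from 14, 27 and 10 fragments at 123, 148 and 62 bp from its lower end.

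The other two genes of that pattern were Crybb3 and Zfp354a. Crybb3 (chromosome 5, 113075839 to 113082236, - strand), a lens crystallin gene, was marked at the end opposite its start, at distances of 40, 219 and 10 bp, with folds of 4.86, 4.22 and 3.09 from 18, 15 and 11 fragments. Zfp354a (chromosome 11, 51059225 to 51072799, strand not known here), a zinc-finger gene, had folds of 4.39, 2.75 and 4.32 from 14, 12 and 14 fragments at 123, 174 and 34 bp from its lower end. A missing summit does not show a missing mark at these counts. Dguok was the 1 gene (0.00484%) with the opposite pattern, marked in every Trem2-MKO library and in 0 of 3 LysM-Cre libraries. It encodes deoxyguanosine kinase, which supplies purine nucleotides for mitochondrial DNA (chromosome 6, 83480214 to 83506969, - strand). Its summits lay 72, 79 and 217 bp downstream of the start in Trem2-MKO replicates 1, 2 and 3, with folds of 5.48, 3.51 and 2.59 from 19, 30 and 28 fragments, and the nearest LysM-Cre summits were 2.34, 2.53 and 255 kb away. The pattern of Dguok was lost with a window of 100 bp and at both stricter limits, and held in lists of equal length. Of these 5 genes, Arpc2 and Dguok had their summits at a known transcription start.

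The remaining 3 genes marked in 3 libraries crossed the genotypes. Slc50a1 (chromosome 3, 89268246 to 89270591, - strand), the gene of a sugar transporter of the SWEET family, had summits 90 and 88 bp downstream of its start in LysM-Cre replicates 1 and 2 and 77 bp downstream in Trem2-MKO replicate 2, with folds of 3.28, 3.44 and 3.35 from 13, 15 and 33 fragments. These 3 summits lay within 13 bp of each other. Krtap28-13 (chromosome 1, 83060930 to 83061921, + strand) had summits 165 bp downstream in LysM-Cre replicate 2 and 239 and 157 bp downstream in Trem2-MKO replicates 1 and 2, with folds of 5.13, 4.03 and 2.64. A summit of LysM-Cre replicate 3 lay 0.305 kb from its end, just outside the limit. Parp4 (chromosome 14, 56575619 to 56659798, + strand), a gene of the poly(ADP-ribose) polymerase family, was marked at its start in LysM-Cre replicate 2 (fold 2.73) and at its opposite end in LysM-Cre replicate 1 and Trem2-MKO replicate 1 (folds 4.10 and 2.5).

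**Figure D4:**
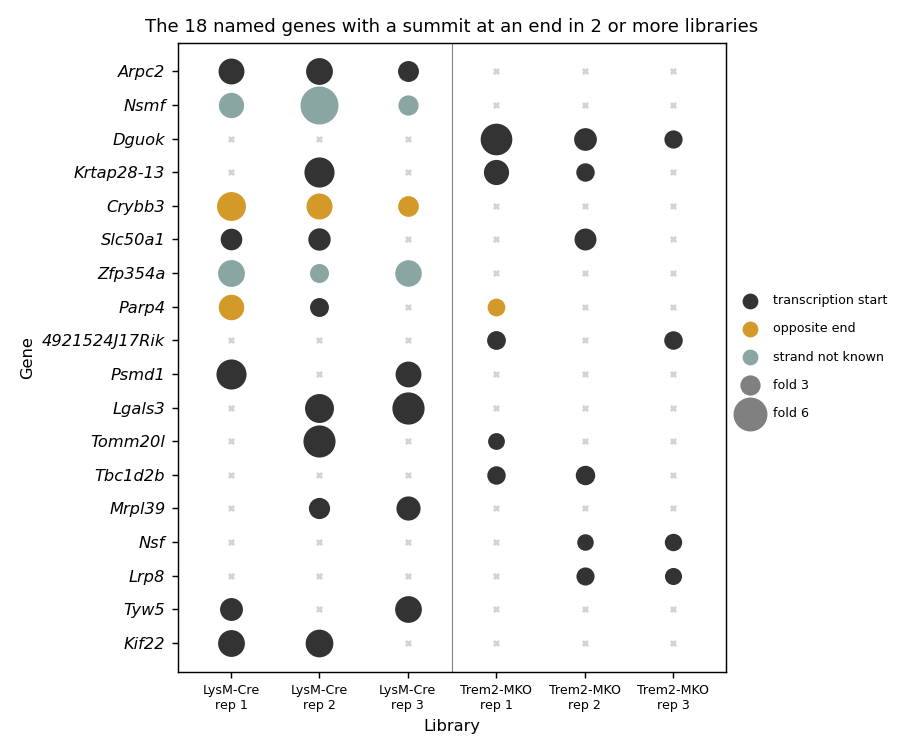
Genes with summits at an end in 3 libraries (first 8) and the 10 genes with the highest summed -log10 p among those marked at the same end in 2 libraries, by library. The area of a dot grows with the authors' fold over background, its colour gives the kind of end and a cross stands for no summit within 250 bp; Arpc2, Nsmf, Crybb3 and Zfp354a are filled in 3 of 3 LysM-Cre libraries and Dguok in 3 of 3 Trem2-MKO libraries.

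The 10 highest ranked genes marked at the same end in 2 libraries were all marked at their start. Within LysM-Cre these were Psmd1, Lgals3, Mrpl39, Tyw5 and Kif22. Psmd1 (chromosome 1, 86064619 to 86139295, + strand), a subunit of the regulatory particle of the proteasome, had folds of 5.12 and 4.18 from 22 and 20 fragments in replicates 1 and 3, at 166 and 216 bp downstream, and a summit of replicate 2 lay 0.290 kb from its end. Lgals3 (chromosome 14, 47373860 to 47386167, + strand) encodes galectin-3, a lectin abundant in lipid-laden macrophages, and had folds of 4.86 and 5.61 from 17 and 18 fragments in replicates 2 and 3, 72 bp upstream and 35 bp downstream. Mrpl39 (chromosome 16, 84718281 to 84735244, - strand), a protein of the mitochondrial ribosome, had folds of 3.19 and 3.82 from 26 and 27 fragments in the same replicates, 5 and 98 bp downstream. Tyw5, a tRNA-modifying hydroxylase, had folds of 3.55 and 4.37 in replicates 1 and 3, and Kif22, a chromosome-binding kinesin, had 4.39 and 4.59 in replicates 1 and 2.

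Within Trem2-MKO the same ranking gave 4921524J17Rik, Tbc1d2b, Nsf and Lrp8. Their folds are not compared with those of the LysM-Cre genes, because the lists differ as a whole. Away from gene ends the median fold was 2.63 and 2.68 in Trem2-MKO replicates 2 and 3, against 3.22, 3.01 and 3.25 in LysM-Cre replicates 1 to 3. The median fragment counts there were 20 and 23, against 11 in each LysM-Cre library. Nsf (chromosome 11, 103821782 to 103954056, - strand), the ATPase that recycles membrane fusion complexes, had folds of 2.26 and 2.44 from 59 and 69 fragments in replicates 2 and 3, over local backgrounds of 23 and 22. In those replicates the fold rests on the fragment count times a fitted factor below 1, and the counts here are given before that factor. The ratio of count to background is therefore not the fold. A summit of LysM-Cre replicate 2 lay 0.310 kb from an end of Nsf. Lrp8, a receptor of reelin, had folds of 2.57 and 2.37 from 53 and 61 fragments in the same replicates. Tbc1d2b, a regulator of Rab GTPases, had 2.64 and 2.84 from 24 and 68 fragments in replicates 1 and 2, and 4921524J17Rik had 2.70 and 2.66 from 39 and 92 fragments in replicates 1 and 3. Tomm20l, which resembles a subunit of the mitochondrial import complex, was the 1 gene of the 10 marked in both genotypes, with a fold of 5.58 in LysM-Cre replicate 2 and 2.31 in Trem2-MKO replicate 1.

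Some summits served a pair of genes. In all, 58 summits lay within 250 bp of more than 1 gene, and 3 pairs shared a summit in 2 libraries. The summit between Hdac3, a histone deacetylase gene, and Rell2 had folds of 3.72 in LysM-Cre replicate 2 and 4.03 in Trem2-MKO replicate 1, from 18 fragments each. Between Mfap1a, a splicing factor gene, and Wdr76, which start on opposite strands, the folds were 3.59 in LysM-Cre replicate 3 and 3.29 in Trem2-MKO replicate 1, at summits 6 bp apart. Gpalpp1 and Nufip1 shared theirs in LysM-Cre replicates 2 and 3, with folds of 4.05 and 3.25. The tallest summit at a gene end in LysM-Cre replicate 2 had a fold of 7.27 from 28 fragments and was seen in that library only. It lay 194 bp upstream of Atg13, an autophagy gene, and 61 bp upstream of Harbi1.

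Several other summits among the strongest of a list were likewise seen in a single library. In LysM-Cre replicate 3 the first was at Lrrcc1 (fold 6.63) and the next between Cops5, a subunit of the COP9 signalosome, and Cspp1 (fold 6.34). Slc44a3, a choline transporter-like gene, followed Dguok in Trem2-MKO replicate 1 (fold 3.80), Rgs22 followed Tbc1d2b in replicate 2 (2.58), and Mtg1, a GTPase of mitochondrial ribosome assembly, followed 4921524J17Rik in replicate 3 (3.92). Dguok, Tbc1d2b and 4921524J17Rik, described above, were marked in other libraries too. In 18 genes both ends were marked. Short genes were among them, where a single summit can reach both ends, such as H4c11 and H4c2, histone H4 genes of 423 and 450 bp. H4c11 was marked in this way in LysM-Cre replicates 1 and 3, with folds of 2.93 and 4.43.

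Among 24 gene families defined by symbol, the share marked in any library ran from 0% to 14.3% with a median of 4.65%, beside 5.35% over all genes. RNA polymerase and Mediator subunits had the highest share, 8 of 56 (14.3%), and 6 of the 8 were marked at the start. They included Polr3f, a subunit of RNA polymerase III, in LysM-Cre replicates 2 and 3 (highest fold 3.84), and Polr2f (3.39), Med23 (3.59) and Med4 (2.93) in 1 library each. Mitochondrial ribosomal protein genes followed with 10 of 78 (12.8%), of which 8 were marked at the start and 0 at the opposite end. All 10 were marked in LysM-Cre, by 11 marks in all, and 0 of 78 in Trem2-MKO, which allows a share of up to 3.85% from counting error alone. Over all genes the corresponding numbers were 742 (3.59%) and 392 (1.9%). The limit of 3.85% lies above 1.9%, so the count of 0 does not set this family apart from all genes. Beside Mrpl39, Mrps5 (4.49), Mrpl58 (3.15) and Mrpl21 (3.12) had the smallest p-values in the family.

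Histone genes were marked in 8 of 79 (10.1%), among them H4c11, H4c14, H2ac13 and H4c2. Protocadherins and cadherins, adhesion molecules that are largely neuronal, had 9 of 90 (10.0%), with Pcdhb5 marked in LysM-Cre replicate 2 and Trem2-MKO replicate 2. Cytochrome P450 genes, many of them hepatocyte enzymes, had 8 of 99 (8.08%), with 4 at starts and 4 at opposite ends. Cyp2c70 (3.86) and Cyp2j11 (4.10) in LysM-Cre replicate 1 and Cyp8b1, the sterol 12-hydroxylase of bile acid synthesis (3.28), in Trem2-MKO replicate 2 were marked at the start. Subunits and assembly factors of oxidative phosphorylation had 7 of 93 (7.53%), with Ndufv1 of complex I marked in 1 library of each genotype. Rab and Arf GTPases and their partners had 7 of 97 (7.22%), all 7 at the start, and zinc-finger genes 32 of 457 (7%), with 20 at starts and 5 at opposite ends.

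The 3 families of sensory receptors lay below the share of all genes. Olfactory receptors had 41 of 1104 (3.71%), split about evenly between starts (18) and opposite ends (16), in contrast to 607 and 271 over all genes. Vomeronasal receptors had 3 of 354 (0.847%) and taste receptors 0 of 38, which allows up to 7.89%. Homeobox and forkhead genes had 5 of 150 (3.33%) and defensins, antimicrobial peptides of epithelia, 4 of 71 (5.63%). Cytosolic ribosomal proteins had 3 of 81 (3.7%), proteasome subunits and assembly factors 2 of 50 (4.00%), translation factors 2 of 68 (2.94%) and splicing factors 2 of 81 (2.47%). Most of these counts are under 10, and no family was tested.

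**Figure D5:**
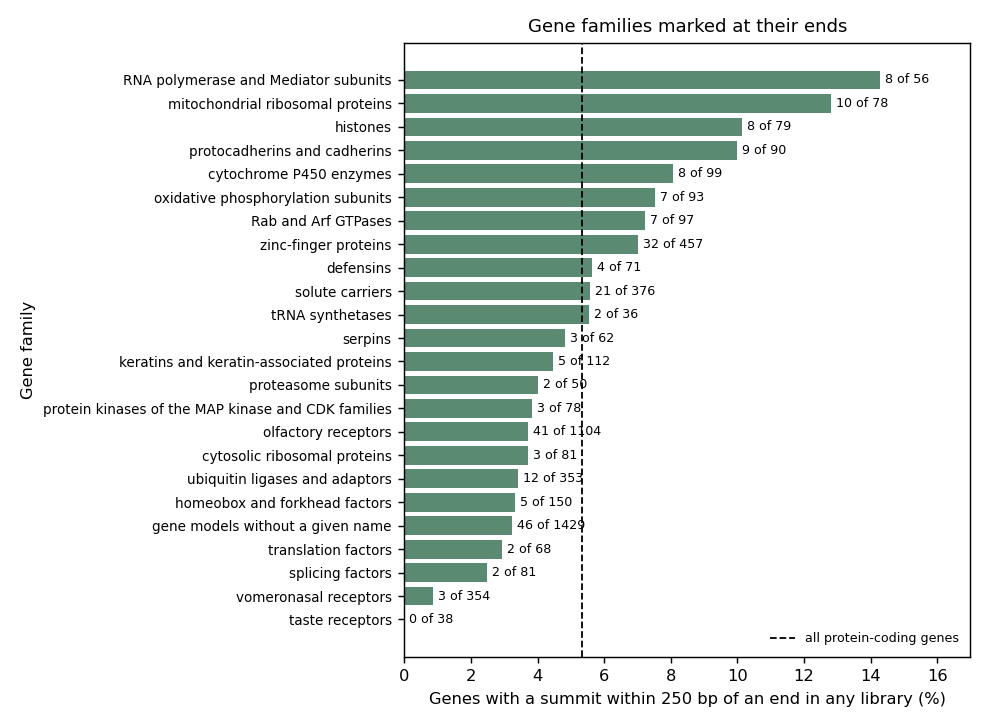
Percent of the genes of each of 24 families with a summit within 250 bp of an end in any library, with the number of marked genes and family size beside each bar; the dashed line is the share over all protein-coding genes, 5.35%. RNA polymerase and Mediator subunits and mitochondrial ribosomal proteins stand highest and taste receptors, at 0 of 38, lowest.

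Lists of cell type markers and pathways held between 0 and 4 marked genes each, to be read beside the 5.35% marked over all genes. Of 28 hepatocyte genes 2 were marked (7.14%), both in LysM-Cre: Fgg, the fibrinogen gamma chain, 248 bp upstream of its start in replicate 1 (fold 3.22), and G6pc, the glucose-6-phosphatase of gluconeogenesis, at its opposite end in replicate 2 (3.24). Of 27 macrophage and monocyte genes 3 were marked (11.1%), each in 1 library: Adgre1, which encodes F4/80 (3.28), and Marco, a scavenger receptor (3.61), in Trem2-MKO replicates 2 and 1, and Cx3cr1 (3.51) in LysM-Cre replicate 1. Of 20 genes of lipid-associated macrophages, Lgals3 and Gpnmb (3.09, Trem2-MKO replicate 1) were marked, which is 10%. Of 22 T and NK cell genes 3 were marked (13.6%), Runx3, a regulator of CD8 T cells, at its start in Trem2-MKO replicate 1 (4.67), Cd8b1 in LysM-Cre replicate 2 (2.97) and Lef1 in Trem2-MKO replicate 2 (2.49). Pax5, the master regulator of B cells, was marked at its start in LysM-Cre replicate 2 (4.85) and Sdc1 in LysM-Cre replicate 1 (2.38), 2 of 12 B and plasma cell genes (16.7%). Among 16 checkpoint and exhaustion genes 1 was marked (6.25%), Nr4a3, with a fold of 3.23 in LysM-Cre replicate 2. Stellate and fibroblast genes gave Pdgfrb in 1 LysM-Cre library (1 of 14, 7.14%) and interferon response genes Usp18 in 1 Trem2-MKO library (1 of 17, 5.88%). Cx3cr1 and Lef1 were marked at the opposite end, and strand was not known for Adgre1, Cd8b1, Pdgfrb and Usp18. These shares rest on 1 to 3 genes each and were not tested.

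Of 27 enzymes that write, erase or read acetyl and methyl groups, 4 were marked (14.8%, beside 5.35% over all genes). Hdac3 was the 1 marked in both genotypes, and Hdac1 (3.40) in Trem2-MKO replicate 1, Kdm2b, a demethylase of H3K36 (3.76), and Smyd2, a lysine methyltransferase (3.33), both in LysM-Cre replicate 2, were marked in 1 library each. Smyd2 was marked at its opposite end, and strand was not known for Hdac1 and Hdac3. No gene was marked in the lists of liver tumour genes, cholangiocytes, endothelium, neutrophils, dendritic cells, antigen presentation, cell cycle, immediate early genes or ubiquitously expressed genes. These lists hold 10 to 18 genes, and a count of 0 in them allows a share of up to 16.7% to 30% from counting error alone, well above the 5.35% of all genes. Among the marked cell type markers, Lgals3 alone was marked in more than 1 library.

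Along the chromosomes, summits at gene ends made up from 0.512% of the summits on chromosome 12 and 0.663% on chromosome 1 to 1.63% on chromosome 16 and 1.70% on chromosome 11. Chromosome 3 held 11.6% of all summits but 8.13% of those at gene ends and 4.76% of the genes, whereas chromosome 11 held 5.13%, 8.30% and 7.79%. Summits continued beyond the limit of 250 bp in lower number: 222 lay 201 to 250 bp from the nearest end and 179 lay 251 to 300 bp away. The number outside was lower in each library except Trem2-MKO replicate 3 (9 inside and 11 outside). The median folds inside and outside the limit were 3.23 and 3.49 in LysM-Cre replicate 1, 2.97 and 3.24 in replicate 2 and 3.21 and 3.15 in replicate 3. In Trem2-MKO they were 3.06 and 3.05, 2.45 and 2.63, and 2.59 and 2.57.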

How the data were processed

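Per the labels' protocols, tumour was fixed, sheared and precipitated with an antibody against H3K36ac, and the DNA underwent whole-genome amplification. Per the submitters' processing notes, Trimmomatic, Bowtie2, SAMtools, Picard, MACS2 and deepTools were used with build mm10; versions are not given in the sources used here. Per the file names, duplicates were removed and each library was called against a pooled control at p of 0.01. The authors deposited, per peak, a score (not used), a fold ratio over local background, -log10 p, -log10 q and the summit. Fragments at a summit were recovered as the whole number that, times a factor fitted per library, returns both fold and p. All peaks fitted within 0.000583 on the -log10 p scale. The factor was 1 in the LysM-Cre libraries and Trem2-MKO replicate 1, 0.903 in Trem2-MKO replicate 2 and 0.798 in Trem2-MKO replicate 3. The factor multiplies the fragment count and not the local background, and fragment counts are given before it. Read depth was not otherwise used.

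Summits were placed against gene ends of RefSeq GRCm38.p6, with strand from its promoter table. In 105 genes the annotated start lies in the first 3 Mb of a chromosome, which may be positions on other sequences, and they were kept. Libraries were grouped by label and compared by exact permutation tests, with Benjamini-Hochberg adjustment over 7 tests (Python 3.11.15, scipy 1.17.1, pandas 2.3.3); the assignment and the recovery of fragments were tested on simulated data. Gene lists matched in all but 9 of 322 entries. Named genes were those marked in 3 libraries, the 10 strongest of those marked in 2, the 2 strongest summits of a library, up to 4 marked members of a list, genes marked at both ends and pairs sharing a summit. The strongest summit of LysM-Cre replicate 1 is not reported here. Alternatives changed the window, the p and q limits, the list length and the libraries used. Members and lists were chosen with earlier results of these data known.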

Additional observations from a re-analysis of the deposited data

Results flagged for a closer look

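Summits at gene ends were also present on chromosomes X and Y, which the definition used above leaves out. Of 683 summits there, 14 lay within 250 bp of an end of one of 1222 protein-coding genes (2.05%, beside 1.05% on chromosomes 1 to 19). The difference between these shares was not tested. They numbered 1, 2 and 6 in LysM-Cre replicates 1 to 3 and 3, 2 and 0 in Trem2-MKO replicates 1 to 3.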

How the results depend on the processing

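The excess of starts over opposite ends, the lower fold at gene ends and the higher GC content of marked starts kept their direction under every window, limit, list length and left-out library tried, including the use of only the LysM-Cre libraries and Trem2-MKO replicate 1, which was chosen after seeing the data. None could pass 0.05 after adjustment with 6 libraries. The settings reuse the same 6 lists, so the kept direction is not independent evidence. Their sizes moved with the window and the limits: at 1000 bp the start excess fell to 9.67 percentage points (exact sign-flip permutation p = 0.188) and the GC excess to 0.029, and at -log10 q of 2 they were 76.5 and 4.54, with a fold difference of -0.141 (log2, unadjusted p = 0.0312). With 1 library left out, the start excess ran from 40.0 to 46.7 percentage points, the fold difference from -0.046 to -0.017 (log2) and the GC excess from 2.13 to 3.55 percentage points.

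The genotype difference in the share of summits at gene ends had no stable sign. In percentage points it was 0.0358 with a window of 100 bp, -0.0135 with 500 bp and 0.150 with 1000 bp. At -log10 p of 5 it was -0.466 and at -log10 q of 2 it was -0.898 (exact two-sided permutation p = 0.7 and 0.5). With equal lists of the strongest peaks it was 0.526. Without Trem2-MKO replicates 2 and 3 it was 0.343, and with 1 library left out it ran from -0.185 to 0.237. The labels do not say whether replicate numbers pair the libraries. Correlations between LysM-Cre and Trem2-MKO libraries of the same number were 0.236, -0.515 and -0.388. Between libraries of different number they ran from -0.447 to 0.758, so they cannot decide on a pairing. With replicate number as a block the difference was -0.00902 (exact sign-flip permutation p = 1). The cause of the sign changes was not tested.

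Ends marked in 2 or more libraries numbered 21, 153 and 288 with windows of 100, 500 and 1000 bp, 38 at -log10 p of 5, 26 at -log10 q of 2 and 27 with equal lists, and 40 to 65 with 1 library left out. Genes marked in every LysM-Cre library and no Trem2-MKO library numbered 1, 8 and 10 with these windows and 1 (Arpc2) with each stricter limit or equal lists, and those with the reverse pattern 0, 4 and 4, and 0 with both stricter limits. With 1 library left out they numbered 4 to 23 and 1 to 8, since 2 of 2 libraries then sufficed. Wider windows and longer lists hold more summits by construction. At a median of 12 to 35 fragments, absence of a summit does not show absence of the mark.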
